A study of Mus musculus with 6 samples.

Results

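Lipoxygenases and the enzymes of leukotriene synthesis are described here as 7 genes of the 46603 listed in each library of bone marrow from NM1 KO and NM1 WT mice. The 7 genes were taken by name after matching Ensembl identifiers to the GENCODE M21 annotation of GRCm38. They fall into 3 lipoxygenase genes that lie side by side on chromosome 11 (Alox12, Alox12e and Alox15) and 4 genes of the leukotriene branch (Alox5, Alox5ap, Lta4h and Ltc4s). All 7 passed the filter on low counts, Alox12e through its wild-type counts (74, 52 and 96, against 6, 6 and 20 in the knockouts). The set was chosen by expression values of these same libraries, the counts in NM1 KO against those in NM1 WT, which were known when it was proposed. Differences of the 7 genes between the genotypes are therefore given as a description. Where one of them is said to pass a threshold, that describes its place in the fit over all genes and is no independent test of it.

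Lipoxygenases insert oxygen into arachidonic acid, a fatty acid freed from membranes by phospholipases. ALOX5, helped by the membrane protein FLAP (the product of Alox5ap), makes leukotriene A4, which LTA4H turns into the neutrophil attractant leukotriene B4 and LTC4S joins to glutathione to give the cysteinyl leukotrienes. In the mouse, Alox12 encodes the platelet-type 12-lipoxygenase, Alox15 the leukocyte-type 12/15-lipoxygenase of eosinophils and resident macrophages, and Alox12e an epidermal-type enzyme. Neutrophils are known makers of leukotriene B4, and mast cells, basophils and eosinophils make leukotriene C4.

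The study sequenced RNA of unsorted marrow from femurs and tibiae of C57/Bl6 mice aged 8 months, with 1 mouse per library. Values of 3 libraries are listed in the order of their replicate numbers. There were 3 mice lacking nuclear myosin 1, labelled NM1 KO and called knockouts below, and 3 wild types, labelled NM1 WT. The labels name no treatment in either group. Nuclear myosin 1 is an isoform of Myo1c with extra residues at its start. The question behind the comparison, per the series title, concerns platelet activation and the immune response. Because the marrow was not sorted, fewer cells of a type and less RNA per cell cannot be told apart in any value below.

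Library totals ran from 15145052 to 22618802 counts, and each NM1 KO library was deeper than each NM1 WT library. Myo1c counts add up all isoforms and so do not check the loss of the nuclear form. Levels are given as CPM, counts scaled to each library's size. Myo1c lay at 59.1 to 73.8 CPM in the knockouts and at 89.8 to 115 CPM in the wild types (adjusted p = 0.0516). Markers of neutrophils, erythroid cells and B cells were present in all 6 libraries. Markers of stroma (5 of 5) and skeletal muscle (4 of 6) rose in NM1 KO, from summed levels of 420 to 559 CPM and 36.2 to 43.2 CPM in the wild types to 1030 to 1840 CPM and 108 to 142 CPM. Their part in the differences below was not tested. Y-linked genes were read in NM1 KO 1, NM1 KO 2 and NM1 WT 2 (155 to 202 CPM) and were at 0 in the other 3 libraries. The labels do not give the sex of the mice. Across genes, NM1 WT 2 correlated at 0.969 with NM1 KO 1 and at 0.957 with each of the other wild types.

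Alox5ap and Lta4h of the leukotriene branch were the most abundant of the 7 genes in wild-type marrow. Per kb of exon, so that genes can be set beside each other, Alox5ap stood first with 304 ± 57.0 CPM per kb in NM1 WT (SD, n = 3). Lta4h followed with 57.1 ± 7.56, Alox5 with 34.5 ± 5.74, Alox15 with 33.8 ± 11.2 and Alox12 with 22.0 ± 2.80 CPM per kb. Alox5 and Alox15, and Alox15 and Alox12, had overlapping ranges in these 3 mice. Alox12e (1.69 ± 0.585 CPM per kb) and Ltc4s (1.30 ± 0.828) were the rarest, and their ranges overlapped as well.

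In the knockouts the list read differently. Alox5ap was again first, with 217 ± 47.6 CPM per kb, but Alox12 came next with 49.2 ± 14.6, overlapping with Lta4h at 47.2 ± 6.75. Alox5 had 25.0 ± 6.0 CPM per kb, and Alox15 stood below it without overlap, at 8.03 ± 2.32. Ltc4s (1.69 ± 0.864) and Alox12e (0.174 ± 0.137) closed the list, with no overlap between them. Exon length is the union over all annotated isoforms (6102 bases for Lta4h, 1420 for Alox5ap).

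The differences between the genotypes were largest at the chromosome 11 cluster, and they went in opposite directions. Alox12 was 2.24-fold higher in NM1 KO, while Alox15 was 4.2-fold and Alox12e 9.63-fold lower. The 3 genes lie on the minus strand within 110.6 kb, with 60.3 kb between Alox12 and Alox12e and 21.5 kb between Alox12e and Alox15. All 3 had groups that did not overlap and passed an adjusted p of 0.05 in edgeR's quasi-likelihood fit over all genes, and the other 4 genes did neither. Of all 15069 tested genes, 0.776% passed (0.591% higher and 0.186% lower in NM1 KO), and 20.5% had groups that did not overlap. These shares are given for scale, and since the genes were proposed with this contrast in view, nothing is read from the count.

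**Figure D1:**
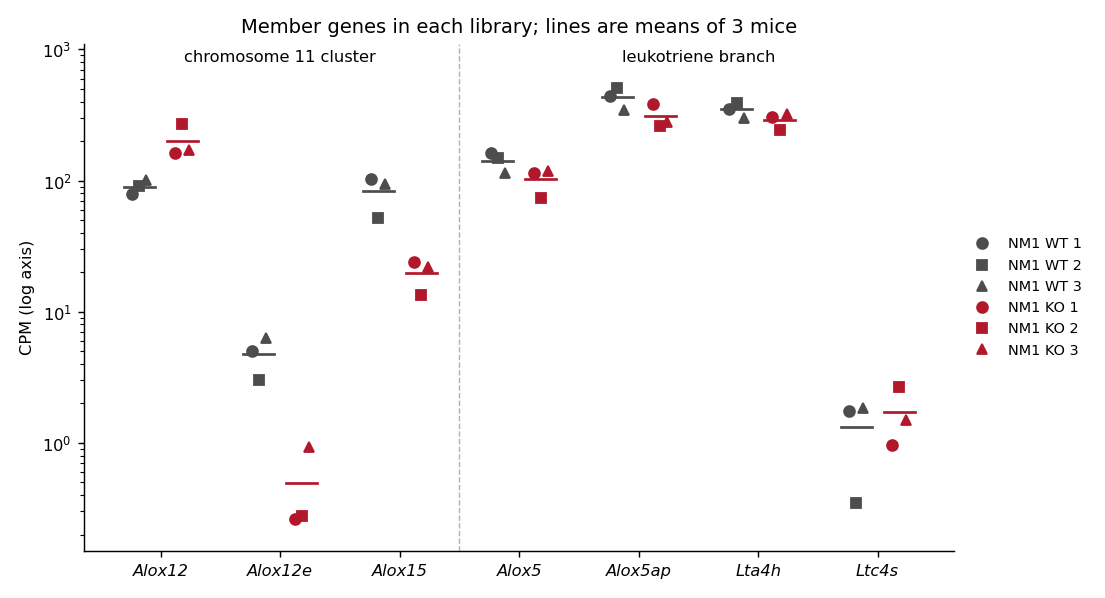
Levels of the 7 genes in each library as CPM on a log axis, with NM1 WT in grey, NM1 KO in red, a symbol for each replicate number and a line at the mean of 3 mice. The groups do not overlap for Alox12, Alox12e and Alox15 and overlap for the other 4 genes.

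Alox12 (ENSMUSG00000000320, chromosome 11, 70241457 to 70255353 on GRCm38) encodes the platelet-type 12-lipoxygenase, which makes 12-HETE in activated platelets. It had 163, 270 and 170 CPM in the knockouts and 78.3, 90.1 and 101 CPM in the wild types. Every NM1 KO library was above every NM1 WT library, and NM1 KO 2 was the highest. The means were 201 ± 59.7 and 89.8 ± 11.4 CPM (SD, n = 3), a log2 fold change of 1.16 (SE 0.19). Without NM1 KO 2 it was 0.90, the smallest value with a library left out. Its adjusted p no longer passed 0.05 when NM1 WT 1 or NM1 WT 3 was left out. Among libraries with Y-linked reads Alox12 had 163 and 270 CPM in the knockouts against 90.1 CPM in the wild type, and among the others 170 against 78.3 and 101 CPM.

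Platelet and megakaryocyte markers were higher along with Alox12. Of 10 such markers 7 rose in NM1 KO, all 10 had a positive log2 fold change (median 1.31), and none was at 0 in any library. Their summed level was 1720 to 3870 CPM in the knockouts and 848 to 1120 CPM in the wild types. Set against the mean log2 level of these markers, Alox12 stood 0.65, 0.60 and 0.92 higher in NM1 KO 1 to 3 and 0.94, 0.80 and 0.91 higher in NM1 WT 1 to 3. Alox12 relative to platelet markers thus overlapped between the genotypes, with a mean difference of -0.16 on the log2 scale. Per kb, the ratio of Alox12 to Gp9, a subunit of the von Willebrand factor receptor, was 0.445, 0.447 and 0.662 in the knockouts and 0.469, 0.577 and 0.524 in NM1 WT. Against Clec1b, the podoplanin receptor, the ratio was lower in every NM1 KO library (2.10 to 2.23) than in every NM1 WT library (2.52 to 2.95). The ratio to Itga2b, the alpha chain of the fibrinogen receptor, went the other way, at 0.373, 0.456 and 0.507 among knockouts and 0.291, 0.404 and 0.308 among wild types, with overlap and a log2 difference of 0.42. The part of these cells in the Alox12 values was not tested beyond such ratios.

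Among 12264 protein-coding genes with a mean of at least 1 CPM, those closest to Alox12 in profile over the 6 libraries were Vwf, Itgb3 and Ly6g6f. Their root mean square differences from Alox12 were 0.057, 0.064 and 0.086 in centred log2 CPM. Vwf encodes von Willebrand factor and Itgb3 the beta chain of the platelet fibrinogen receptor. Vwf had 151, 246 and 142 CPM in the knockouts and 71.9, 79.7 and 85.6 CPM in the wild types, so NM1 KO 2 was again the highest library.

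The promoters of Alox12 and of Gp1ba, a platelet gene further along the same chromosome, are shown because both genes were higher in NM1 KO and both are known from platelets. Each is the 250 bases before the start of the gene in RefSeq (GRCm38.p6), 5′ to 3′ on the strand of the gene. Capitals mark GATAA, the core bound by GATA factors, and GGGCGG, the core bound by Sp1, on either strand (TTATC and CCGCCC on the other strand). The windows are chr11:70255371-70255620 on the minus strand for Alox12 and chr11:70638872-70639121 on the plus strand for Gp1ba.
Alox12: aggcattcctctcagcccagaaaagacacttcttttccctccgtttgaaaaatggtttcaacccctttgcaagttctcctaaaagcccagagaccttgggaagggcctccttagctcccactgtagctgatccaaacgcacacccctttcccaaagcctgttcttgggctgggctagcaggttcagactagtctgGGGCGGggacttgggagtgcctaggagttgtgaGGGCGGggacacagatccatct
Gp1ba: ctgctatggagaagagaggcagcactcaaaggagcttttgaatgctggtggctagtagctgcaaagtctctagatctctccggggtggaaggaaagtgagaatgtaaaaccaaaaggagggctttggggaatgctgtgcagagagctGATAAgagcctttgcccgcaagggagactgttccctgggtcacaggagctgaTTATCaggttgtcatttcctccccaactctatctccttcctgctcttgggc
The Alox12 window holds GGGCGG 2 times, starting 55 and 22 bases before the gene, and no GATAA. The Gp1ba window holds GATAA 2 times, at 103 and 51 bases, and no GGGCGG. Among 32851 windows of this length 32.7% hold GGGCGG and 16.7% hold it 2 or more times, while 22.6% hold GATAA and 4.28% hold it 2 or more times. RefSeq windows were found for 5 of the 7 genes. Alox12e has GGGCGG 1 time and no GATAA, Alox5 has each 1 time, and the windows of Lta4h and Ltc4s hold neither. GGAAG, the core bound by ETS factors, is in 64.1% of windows and occurs 1 time in that of Alox12 and 2 times in that of Gp1ba.

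Alox15 (ENSMUSG00000018924, chromosome 11, 70344152 to 70352031) encodes the 12/15-lipoxygenase, which makes 12-HETE, 15-HETE and precursors of lipoxins. It had 24.0, 13.3 and 21.9 CPM in the knockouts and 102, 51.5 and 94.9 CPM in the wild types. All NM1 KO libraries lay below all NM1 WT libraries, and NM1 WT 2 was the lowest of the wild types. The means were 19.7 ± 5.69 and 82.9 ± 27.4 CPM, a log2 fold change of -2.07 (SE 0.27). Among the 3 libraries with Y-linked reads Alox15 had 24.0 and 13.3 CPM in the knockouts against 51.5 CPM in the wild types, and among the 3 without them 21.9 CPM in the knockouts against 102 and 94.9 CPM in the wild types. With this Y-linked state in the fit the log2 fold change was -1.82.

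Eosinophil granule genes were lower along with Alox15. Of 6 eosinophil markers 3 fell in NM1 KO, the granule genes Prg2, Prg3 and Epx, and 3 did not pass, the surface receptors Siglecf, Ccr3 and Il5ra. Their median log2 fold change was -1.19, none was at 0 in any library, and their summed level was 597 to 984 CPM in the knockouts and 1680 to 2780 CPM in the wild types. Against the mean log2 level of these 6 markers Alox15 stood at -0.17, -0.69 and -0.34 in NM1 KO 1 to 3 and at 0.75, 0.55 and 0.70 in NM1 WT 1 to 3, with no overlap. The distance between those means was -1.07, so Alox15 differed by more than the mean of this list.

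Against the granule genes alone the distance was smaller. The ratio of Alox15 to Prg2, the major basic protein, was 0.00970, 0.00904 and 0.0107 per kb in NM1 KO and 0.0153, 0.0123 and 0.0135 in NM1 WT. Its mean log2 difference was -0.47, and those of the ratios to Prg3 and Epx were -0.41 and -0.57, each with no overlap between the genotypes. Markers of resident macrophages, another known source of Alox15, had positive log2 fold changes in all 8 cases. They ran from 0.04 for Adgre1 to 1.46 for Mrc1, and the groups of Adgre1, C1qa, C1qb and Cd163 overlapped, so not all 8 differed alike. Of the 8 markers 2 rose, Mrc1 and Vcam1. The summed level was 640 to 1250 CPM in the knockouts and 395 to 541 CPM in the wild types. Vcam1 alone had 208 to 492 CPM in the knockouts and 102 to 158 CPM in the wild types. Whether these markers came from macrophages alone in unsorted marrow was not tested. What share of Alox15 came from each cell type was not tested.

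The 3 genes closest to Alox15 in profile were Ear6, Ear1 and Ear2, all on chromosome 14. They encode ribonucleases of eosinophil granules, and their root mean square differences were 0.092, 0.217 and 0.230 in centred log2 CPM. Ear6 had 45.1, 24.0 and 38.3 CPM in the knockouts and 158, 94.3 and 163 CPM in the wild types. Like Alox15, it was lowest in NM1 KO 2 among the knockouts and in NM1 WT 2 among the wild types. The Ear genes are near-identical copies, so their separate counts are uncertain.

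**Figure D2:**
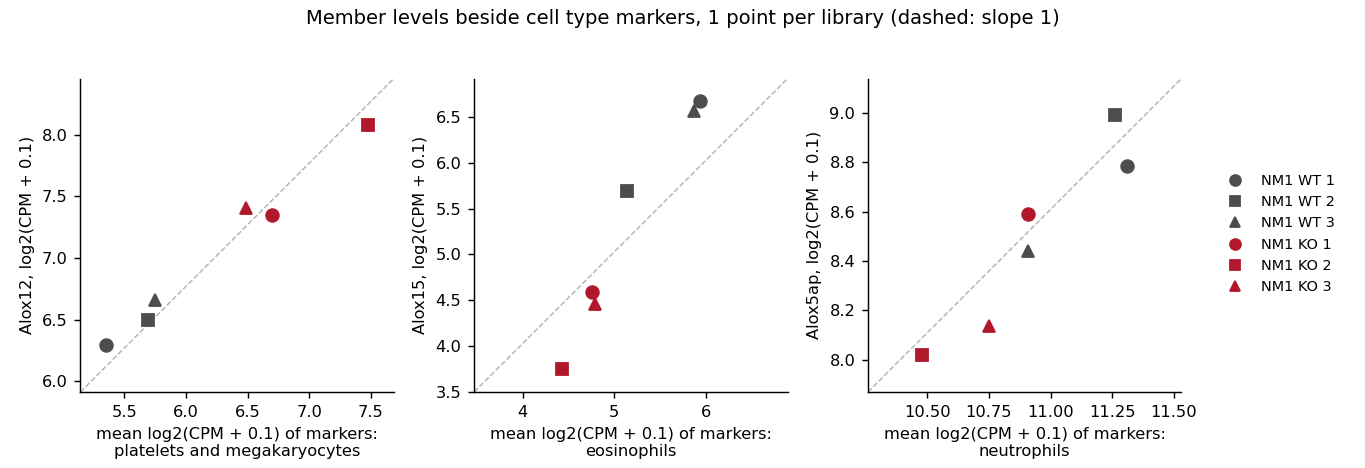
Log2 levels of Alox12, Alox15 and Alox5ap against the mean log2 level of platelet, eosinophil and neutrophil markers, 1 point per library, with a dashed line of slope 1. Alox12 runs along the line in both genotypes, Alox15 lies above it in NM1 WT and below it in NM1 KO, and Alox5ap lies close to it in both.

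Alox12e (ENSMUSG00000018907, chromosome 11, 70315610 to 70322628) sits between Alox12 and Alox15 and encodes the epidermal-type 12-lipoxygenase. It was rare in all libraries, with 6, 6 and 20 reads counted in the knockouts and 74, 52 and 96 in the wild types. In CPM these were 0.261, 0.276 and 0.938 against 5.02, 3.01 and 6.30, with no overlap. The log2 fold change was -3.27 (SE 0.60), which rests on 32 counts in all 3 knockouts together against 222 in the wild types. If both mates of a read pair were counted, as the even numbers show they may have been, the fragments behind these counts are fewer still. Without NM1 KO 3, the knockout with the most reads, the log2 fold change was -4.12. Among libraries with Y-linked reads the values were 0.261 and 0.276 CPM against 3.01 CPM, and among the others 0.938 against 5.02 and 6.30 CPM. With 1 library left out, its adjusted p passed 0.05 only when NM1 KO 3 or NM1 WT 2 was the library left out, and not when any of the other 4 was.

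Of 4 keratin genes that mark skin, Krt5, Krt14 and Krt1 had 0 counts in every library. Krt10, the suprabasal keratin that pairs with Krt1, was read in every library, at 52, 40 and 36 counts among knockouts and 38, 48 and 20 among wild types. The 6 epidermal markers together had 3.50 to 5.13 CPM in the knockouts and 4.46 to 6.52 CPM in the wild types. The genes closest to Alox12e were Cacna1b, Gm8113 and Apol9a, at root mean square differences of 0.612 to 0.715, wider than for Alox12 or Alox15.

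The 3 cluster genes share little exact sequence. In the GENCODE M21 transcripts the longest identical stretch was 18 bases between Alox12 and Alox15 and 16 bases for each pairing with Alox12e. The read length is not given in the sources used here.

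Within single libraries the balance of Alox12 and Alox15 differed between the genotypes. Per kb of exon, Alox12 stood at 0.46, 1.05 and 0.64 times Alox15 in NM1 WT 1 to 3 and at 4.09, 12.2 and 4.68 times in NM1 KO 1 to 3. Alox15 was thus the more abundant of the pair in NM1 WT 1 and NM1 WT 3, both were about equal in NM1 WT 2, and Alox12 was the more abundant in all 3 knockouts. The ratio of Alox15 to Alox12e was also higher in NM1 KO (106, 55.3 and 26.8) than in NM1 WT (23.5, 19.7 and 17.4), though the NM1 KO values rest on very few Alox12e counts.

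The 3 cluster genes were chosen with this contrast known, so nothing is read from their larger differences beside most genes around the cluster. Of 85 genes within 500 kb of it, 51 were tested, 1 rose and 0 fell in NM1 KO by edgeR's quasi-likelihood test with Benjamini-Hochberg adjustment, against 0.776% of all tested genes. The neighbours had a median log2 fold change of -0.09, from -0.79 to 1.32, beside a median of 0 over all tested genes. At an unadjusted p under 0.05, 1 was higher and 4 were lower, beside 16.8% of all tested genes in either direction. Groups did not overlap for 4 higher and 11 lower neighbours of the 51 tested, beside 10.8% and 9.75% of all tested genes. The share without overlap was thus above that of all genes for lower neighbours and below it for higher ones.

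Gp1ba, the neighbour that rose, encodes the alpha chain of platelet glycoprotein Ib and starts 287.1 kb past Alox15. It had 31.1, 55.9 and 32.3 CPM in the knockouts and 11.9, 19.9 and 15.9 CPM in the wild types, which is 1.32 on the log2 scale (SE 0.25, adjusted p = 0.0420). Per kb, the ratio of Alox12 to Gp1ba was 3.49, 3.21 and 3.51 in NM1 KO and 4.36, 3.01 and 4.24 in NM1 WT, which overlapped. Gp1ba did not pass without NM1 KO 2, NM1 WT 1 or NM1 WT 3, with limma-voom or with the Y-linked state in the fit.

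The nearest tested gene on the Alox12 side, Rnasek, ends 1.6 kb from it. Rnasek had 0.787 ± 0.294 and 0.560 ± 0.485 CPM in the knockouts and NM1 WT (adjusted p = 0.809). These levels rest on 20, 10 and 22 counts in NM1 KO and 16, 8 and 2 in NM1 WT. The log2 fold change of 0.49 had an SE of 0.79, so these counts cannot show whether Rnasek differed. On the Alox15 side Pelp1, a coregulator of nuclear receptors, starts 40.9 kb away and had 47.2, 38.9 and 47.8 CPM in the knockouts against 82.9, 58.9 and 89.4 CPM in the wild types. Its groups did not overlap, with a log2 fold change of -0.79 (SE 0.17) and an adjusted p of 0.0516, and Pelp1 passed the threshold with DESeq2 (adjusted p = 0.00124). Within 1 Mb, 85 neighbours were tested and 2 rose, Gp1ba and the inflammasome sensor Nlrp1b (log2 fold change 3.40, adjusted p = 0.0165), the latter named after its value was seen. Its paralog Nlrp1a, also named after its values were seen, did not pass in the quasi-likelihood test but was lower with DESeq2 (log2 fold change -2.93, adjusted p = 0.0171) and with the likelihood ratio test (-2.89, adjusted p = 0.0142). Nlrp1b also passed with limma-voom (log2 fold change 3.75, adjusted p = 0.021). It passed as well with the Y-linked state in the quasi-likelihood fit (3.58, adjusted p = 0.0123). Reads of such close paralogs may be split between them, which was not tested here, so the values of both genes are to be read with caution. Myo1c itself lies 5.30 Mb from the end of Alox15 on the same chromosome. Of 86 tested genes between the cluster and Myo1c, 2 rose and 1 fell, against 0.776% of all tested genes in either direction. Any part of the allele at Myo1c in these differences was not tested.

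**Figure D3:**
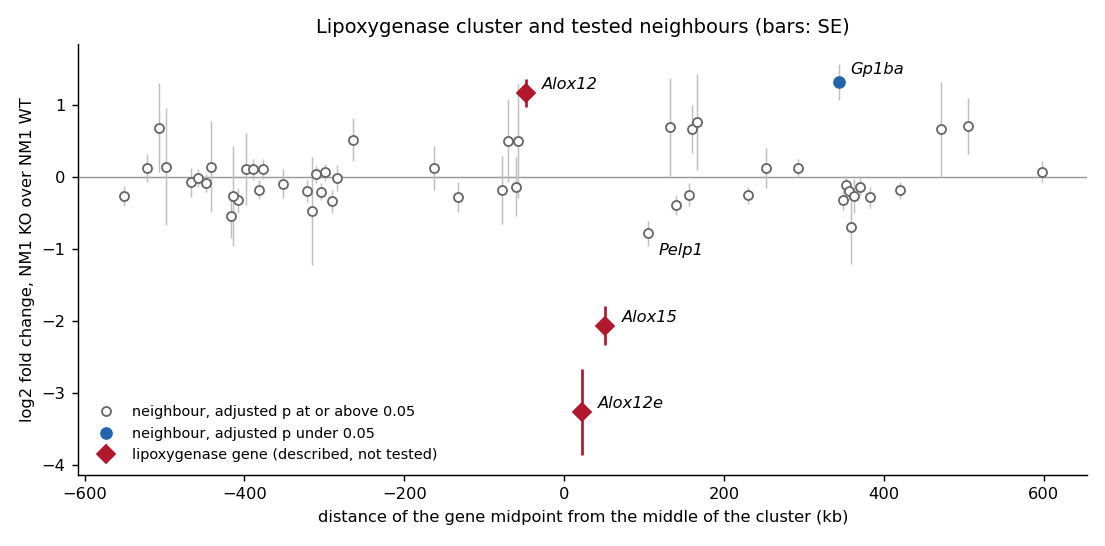
Log2 fold change (NM1 KO over NM1 WT, bars SE) of the 3 lipoxygenase genes (red diamonds) and the 51 tested neighbours (circles, blue where adjusted p is under 0.05) by distance in kb from the middle of the cluster. Alox12 and Gp1ba stand above 1, Alox15 and Alox12e below -2, and the other neighbours between -0.79 and 0.76.

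The leukotriene branch differed less between the genotypes. Alox5, Alox5ap and Lta4h were lower on average in NM1 KO, by 1.38-fold, 1.40-fold and 1.21-fold, but the groups of all 3 overlapped, and none passed in the fit over all genes. Neither did Ltc4s. Their log2 fold changes were negative under each of the 16 alternative settings for Alox5, Alox5ap and Lta4h.

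Alox5 (ENSMUSG00000025701, chromosome 6, 116410077 to 116461178), the 5-lipoxygenase, had 114, 74.2 and 119 CPM in the knockouts and 161, 148 and 115 CPM in the wild types. NM1 KO 2 was low, and NM1 WT 3 lay within the range of the knockouts. The means were 103 ± 24.6 and 142 ± 23.6 CPM, a log2 fold change of -0.47 (SE 0.19). It shrank to -0.28 without NM1 KO 2.

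Alox5ap (ENSMUSG00000060063, chromosome 5, 149264767 to 149288153), which encodes FLAP, had 385, 259 and 281 CPM in the knockouts and 441, 509 and 347 CPM in the wild types. NM1 KO 1 stood above NM1 WT 3, so the groups overlapped. The means were 308 ± 67.6 and 432 ± 81.0 CPM, a log2 fold change of -0.49 (SE 0.18). Its antisense neighbour Gm19719 overlaps it with 22 to 65 counts of its own, beside 5296 or more of Alox5ap in every library.

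Lta4h (ENSMUSG00000015889, chromosome 10, 93453411 to 93484875), the leukotriene A4 hydrolase, had 303, 241 and 319 CPM in the knockouts and 354, 392 and 300 CPM in the wild types. NM1 WT 3 lay below 2 of the knockouts. The means were 288 ± 41.2 and 349 ± 46.1 CPM, a log2 fold change of -0.28 (SE 0.15). It was -0.16 without NM1 KO 2 and -0.18 without NM1 WT 2.

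Neutrophil markers were lower on average along with these 3 genes. Of 9 such markers none passed, all 9 had a negative log2 fold change (median -0.46), and the summed level was 24600 to 31900 CPM in the knockouts and 31200 to 42300 CPM in the wild types. None was at 0 in any library. Relative to the mean log2 level of these markers, Alox5 and Alox5ap each differed by -0.04 between the genotypes and Lta4h by 0.17, and all 3 overlapped. The ratio of Alox5ap to Alox5 per kb was 9.77, 10.1 and 6.80 in NM1 KO and 7.91, 9.92 and 8.71 in NM1 WT, and the groups overlapped. The ratio of Alox5 to Lta4h was 0.559, 0.457 and 0.555 among knockouts and 0.677, 0.562 and 0.571 among wild types, lower without overlap, though by as little as 0.559 against 0.562. The pattern was not particular to neutrophil markers. Of 6 monocyte markers none passed either, and all 6 had a negative log2 fold change (median -0.39). Their mean log2 level differed by -0.41 between the genotypes, beside -0.45 for the neutrophil markers. The part of neutrophils or monocytes in the values of Alox5, Alox5ap and Lta4h was not tested.

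By the same measure of likeness, in centred log2 CPM over 6 libraries, Alox5 was nearest to Chst13, Chil1, a chitinase-like protein of neutrophils, and Pygl, glycogen phosphorylase (0.049 to 0.068). Alox5ap was nearest to Il6ra, the interleukin 6 receptor, Ifnlr1, the interferon lambda receptor, and Napsa (0.053 to 0.072). Lta4h was nearest to Tkt, transketolase, Arhgef6 and Itgb2l (0.026 to 0.034).

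Ltc4s (ENSMUSG00000020377, chromosome 11, 50236461 to 50238616), leukotriene C4 synthase, lies 20.0 Mb from the lipoxygenase cluster. It had 22, 58 and 32 counts in the knockouts and 26, 6 and 28 in the wild types, or 0.957, 2.67 and 1.50 CPM against 1.76, 0.348 and 1.84 CPM. The groups overlapped, and the log2 fold change of 0.38 (SE 0.68) turned to -0.09 without NM1 KO 2 and to -0.07 without NM1 WT 2. The spread between mice of 1 genotype, 22 to 58 and 6 to 28 counts, was wider than the difference between the means. Of 6 tested basophil and mast cell markers 1 fell, the basophil protease Prss34, and none rose. All 6 had a negative log2 fold change (median -0.84). The 8 markers summed to 533 to 599 CPM in the knockouts and 805 to 963 CPM in the wild types. Against their mean log2 level Ltc4s differed by 1.2, with overlap, and against that of eosinophil markers by 1.5, without overlap, on few counts. The part of these cells in Ltc4s was not tested. The mast cell genes Cma1 and Tpsb2 were at or near 0 (at most 0.68 CPM). The profile closest to Ltc4s was that of Bace2 (0.176).

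The rest of the eicosanoid pathway was read from 62 further genes in 8 lists by role, of which 50 were tested. None passed in edgeR's quasi-likelihood test, against 0.776% of all tested genes, while 8 were higher and 8 lower at an unadjusted p under 0.05 (16.8% of all tested genes were so in either direction). Their median log2 fold change was 0.03, with 26 positive and 24 negative. With DESeq2 3 rose and 4 fell, and with limma-voom none passed. The other 3 lipoxygenase genes, Alox8, Alox12b and Aloxe3, also on chromosome 11, had at most 20 counts in any library and were not tested.

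Among genes of leukotriene export and breakdown, Ggt1, a gamma-glutamyl transferase that turns leukotriene C4 into D4, had 1.19 ± 0.321 CPM in the knockouts and 4.99 ± 1.06 CPM in the wild types (log2 fold change -2.06, SE 0.42, adjusted p = 0.0504). Hpgd, which inactivates prostaglandins, had 40.0 ± 9.27 and 22.1 ± 0.522 CPM (0.86, SE 0.18, adjusted p = 0.0513). Both had groups without overlap and lay just above the threshold of 0.05, which each passed with DESeq2, the likelihood ratio test, total-count scaling or halved counts. Of the 9 tested genes of this list 4 had positive and 5 negative log2 fold changes, with a median of -0.15. They ranged from -2.06 to 1.24. At an unadjusted p under 0.05 in the quasi-likelihood test, 2 were higher and 4 lower, beside 16.8% of all tested genes in either direction. Groups did not overlap for 2 higher and 4 lower genes, beside 10.8% and 9.75% of all tested genes.

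Among receptors, Ltb4r1, the high-affinity leukotriene B4 receptor of neutrophils, had 110 ± 29.8 CPM in the knockouts and 163 ± 20.3 CPM in the wild types with no overlap (log2 fold change -0.57, adjusted p = 0.168). Fpr2, which binds formyl peptides and lipoxin A4, had 141 ± 22.4 and 189 ± 25.0 CPM (-0.43, adjusted p = 0.187). Cotl1, a binding partner of 5-lipoxygenase, had 514 ± 77.8 and 684 ± 95.2 CPM (-0.41, adjusted p = 0.199). Alox5 and Alox5ap had log2 fold changes of -0.47 and -0.49. Mapkapk2, a kinase that acts on 5-lipoxygenase, had 188 ± 10.6 and 205 ± 31.3 CPM (adjusted p = 0.70). Mgst2 and Mgst3, relatives of leukotriene C4 synthase, had log2 fold changes of -0.37 and -0.11.

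Upstream, phospholipases free the fatty acid, and cyclooxygenases compete for it. Of 13 tested genes of arachidonate release and handling, 9 were positive and 4 negative (median 0.13), with Pla2g4c at 11.6 ± 4.98 and 5.52 ± 1.71 CPM (adjusted p = 0.164) and Pla2g12a at 51.6 ± 9.78 and 37.3 ± 3.00 CPM (adjusted p = 0.183). Of 8 prostanoid synthesis genes 5 were positive (median 0.31). Hpgds, the blood-cell prostaglandin D synthase, had 19.4 ± 3.93 and 11.7 ± 0.348 CPM (adjusted p = 0.119), and Tbxas1, the thromboxane synthase of platelets and macrophages, 53.5 ± 12.7 and 37.8 ± 4.93 CPM (adjusted p = 0.193). The 7 tested prostanoid receptors had a median of 0.32, and their smallest p belonged to Ptger3 (adjusted p = 0.426) and Tbxa2r (adjusted p = 0.450).

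**Figure D4:**
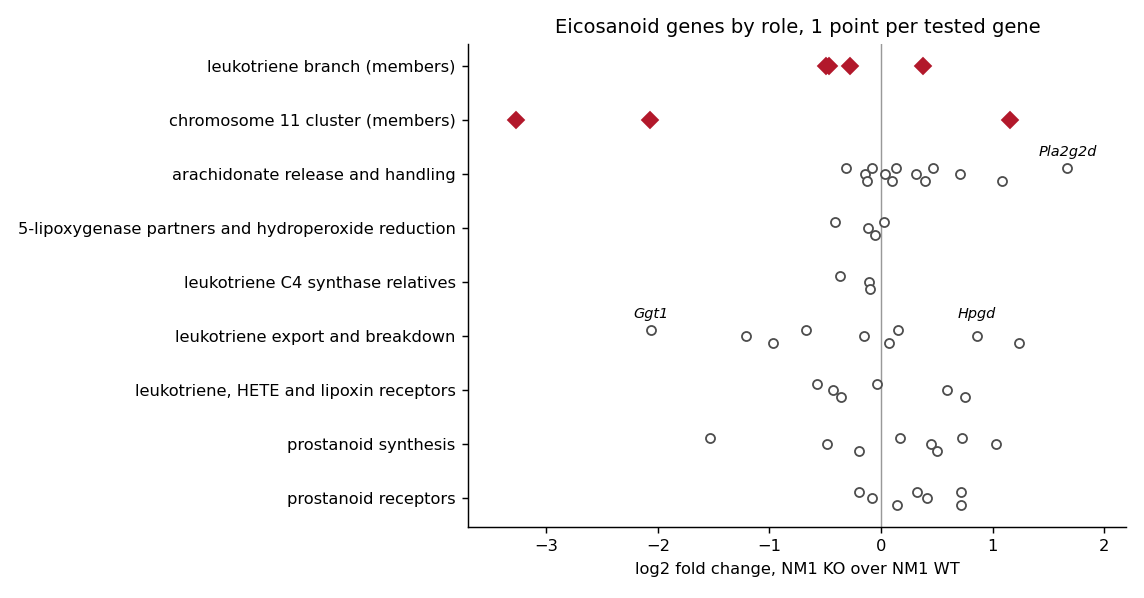
Log2 fold changes (NM1 KO over NM1 WT) of the 7 described genes (red diamonds) and of the 50 other tested eicosanoid genes (open circles) by role. Pla2g2d, a secreted phospholipase, was labelled as the highest of them after its value was seen. No open circle passed an adjusted p of 0.05, and the chromosome 11 genes span from -3.27 to 1.16 while the leukotriene branch lies between -0.49 and 0.38.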

How the data were processed

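RNA of whole marrow from 3 NM1 KO and 3 NM1 WT mice was measured as raw read counts per Ensembl gene, as deposited by the authors. The submitters' processing notes name HTSeq, HISAT2 2.0.4, Trimmomatic 0.36, SAMtools 0.1.19 and FastQC, with builds GRCm38 and mm10. No source used here states a strand setting, a read length or the annotation release, so reads of antisense genes cannot be told apart. Of counts from 1 to 20, 98.7% to 98.9% were even, so both mates of a pair appear to have been counted.

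Of 46603 genes 46091 matched GENCODE M21. Counts were filtered with filterByExpr (15069 genes kept), scaled with TMM and fitted with edgeR 4.0.16 (R 4.3.3, quasi-likelihood, genotype only), with Benjamini-Hochberg adjustment over all tested genes and a threshold of 0.05. One CPM stood for 14.7 to 23.0 counts. Marker levels are means of log2(CPM + 0.1). The pipeline was also run on simulated independent counts with set differences. The simulation held no Y-linked state, replicate structure or doubled counts, so it does not check the fit against these.

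The 7 genes and all lists were chosen with earlier results of these data known. Named were the 7 genes, pathway genes past the threshold or the 2 of smallest p per list, neighbours past the threshold or nearest to the cluster, and the 3 closest profiles per gene. Any other gene was named after its values were seen, marker genes apart. Alternatives were RLE and total-count scaling, 2 other filters, DESeq2 1.42.0, limma-voom (limma 3.58.1), the likelihood ratio test, a replicate block, each library left out, halved counts and the Y-linked state as a covariate.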

Additional observations from a re-analysis of the deposited data

How the results depend on the processing

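Over the 16 alternatives Alox12 stayed positive (0.90 to 1.29), Alox15 negative (-2.32 to -1.82) and Alox12e negative (-4.12 to -2.97 with a library left out, and within that range otherwise). These genes were chosen with this contrast known, so their place past the threshold is no sign of stability. Alox12 lost it without NM1 WT 1 or NM1 WT 3, and Alox12e with limma-voom and without NM1 KO 1, NM1 KO 2, NM1 WT 1 or NM1 WT 3. Alox5 and Alox5ap passed only with no low-count filter. The number of all genes past the threshold, 117, became 1138 (621 higher, 517 lower in NM1 KO) with no low-count filter, 794 (400, 394) with DESeq2, 541 (298, 243) with the likelihood ratio test, 37 with limma-voom, 60 with the Y-linked state, and 26 to 344 with a library left out. Leaving out knockout 2 gave 40 and knockout 3 gave 177, and leaving out wild type 1, 2 or 3 gave 26, 344 or 30. The 0 other eicosanoid genes became 12 with no low-count filter, 7 with DESeq2, 4 with the likelihood ratio test, 2 with total-count scaling, 2 with halved counts, and 0 to 1 with a library left out. The 1 neighbour became 2 with no low-count filter, DESeq2, the likelihood ratio test, halved counts or a window of 1 Mb, 0 with limma-voom or the Y-linked state, and 0 to 2 with a library left out. The cause of these moves was not tested.

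With the replicate number as a block, 421 genes passed (229 higher, 192 lower), 4 of the other eicosanoid genes and 2 neighbours. Deviations of libraries with the same number correlated at 0.064, 0.115 and 0.061, and those with unlike numbers at -0.078 to 0.017. Every library thus correlated best with its own number. The labels do not say that the numbers pair the mice, so the main fit left them out. Whether they do is not known.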
